A study of Mus musculus and Rattus norvegicus with 12 samples.

Results

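The genes described here are 10 genes of the endocytic route of yolk sac endoderm, namely Cubn, Amn, Lrp2, Lrpap1, Dab2, Lrp1, Fcgrt, Cltc, Rab11a and Snx5. They were chosen by symbol, and all 10 were present among the 24411 genes of the mouse count tables and among the 17315 of the rat tables. RNA-seq counts came from 12 separately derived cell lines, so the spread between replicates is the spread between lines. All mouse lines came from ICR mice. The 3 pXEN lines (pXEN2 male, pXEN4 and pXEN6 female, passages 17 to 21) were kept in the medium used for rat XENP cells. The 3 XEN lines (XEN1 female, XEN2 and XEN5 male, passages 9 to 21) were grown in fetal bovine serum on mouse embryo fibroblast feeders. The rat XENP lines were CX1 (male) and MAX8 (female) from WKY rats and MAX2 (female) and MAX3 (male) from F344 rats. CX1 was at passage 38 to 40 and the others at passage 10 to 17. The 2 embryonic stem (ES) lines, ES2 male and ES3 female at passages 14 to 16, were grown in fetal bovine serum with LIF and the 2i inhibitors. Each line was cultured for 2 days before RNA was taken, and each sample was 1 line. Cell type and culture medium therefore differed together in every mouse comparison, and their parts cannot be told apart.

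Visceral endoderm of the yolk sac takes up maternal proteins, lipoproteins and vitamins for the rodent embryo before the placenta does so. Cubilin (Cubn) has no membrane-spanning part and is held at the apical surface by amnionless (Amn). It works beside megalin (Lrp2), a large receptor with many ligands. The adaptor Dab2 links the tails of these receptors to clathrin, the chaperone Lrpap1 keeps megalin and its relatives from binding ligand too early, and Rab11a and sorting nexins bring receptors back from endosomes. XEN cells are self-renewing lines from primitive endoderm, the layer that forms both visceral and parietal yolk sac endoderm.

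The 8 mouse libraries had 2661691 to 3483069 counts on genes and the 4 rat libraries 1047535 to 1242937. Levels are given as CPM, the count of a gene scaled to library size, and are not on one scale between mouse and rat. Summed over 6 markers of extraembryonic endoderm (Gata4, Gata6, Sox7, Sox17, Foxa2 and Pdgfra), the level was 778 to 892 CPM in pXEN lines, 679 to 792 CPM in XEN lines and 3.12 to 4.11 CPM in ES lines, and 2430 to 2843 CPM in rat lines. Of 14 visceral endoderm markers, Apoa1 and Apoa4 had 0 counts in every mouse line, and for the defining marker Afp the pXEN lines held 4 counts, the XEN lines 7, the rat lines 0 and the ES lines 0. The 12 parietal markers summed to 11971 to 18800 CPM in pXEN lines, 9563 to 26155 CPM in XEN lines and 100.3 to 187 CPM in ES lines. Other visceral markers were present: Ttr averaged 11.8 CPM in pXEN, 14.6 CPM in XEN and 0.206 CPM in ES, and Hnf4a 30.7 CPM in pXEN, 36.2 CPM in XEN and 5.82 CPM in ES. By edgeR, each of the 5 visceral markers tested, of the 14, was above its ES level in pXEN and also in XEN. Ttr and Spink1, with 1 and 5 counts over the ES lines, passed the filter on low counts through endoderm lines alone. The count of 5 is therefore a description only. Among the visceral markers not tested, Trf and Apob ran the other way. Trf averaged 0.0949 CPM in pXEN, 0 CPM in XEN and 11.8 CPM in ES, and Apob 0, 0.218 and 3.78 CPM in the same order of groups. Rat line CX1 stood apart from the MAX lines, with 163 CPM of the pluripotency marker Pou5f1 against 6.25 to 8.32 CPM, while the other 3 pluripotency markers in the rat tables, Nanog, Sox2 and Esrrb, had 0 counts in all 4 lines. CX1 also had 19975 CPM of parietal markers against 37058 to 41563 CPM.

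The windows around the transcription starts of Cubn, Amn, Lrp2 and Dab2 are shown because these 4 genes had the same lowest line in each group of endoderm lines. For Amn this rests on 0 counts in pXEN6, 1 in XEN5 and 2 in MAX8, and MAX3 also had 2. The windows are 300-base promoters from RefSeq for mouse (GRCm38.p6), each with 250 bases before the start and 50 after. They are written 5′ to 3′ on the gene's own strand. Capitals mark any of 6 motifs found on either strand. Those of GATA factors were searched as AGATAA and also as TGATAA in both orientations. That of HNF1 was the hexamer GTTAAT and that of HNF4 the hexamer CAAAGT as written here. The motif of SOX factors was ACAAAG, which can overlap that of HNF4 by 5 bases. The GC box was searched as GGGCGG in the same way. The Cubn window lies at chr2:13491827-13492126 on the minus strand, the Amn window at chr12:111270846-111271145 on the plus strand and the Lrp2 window at chr2:69585980-69586279 on the minus strand. Dab2 has a pair of windows on the plus strand, at chr15:6299539-6299838 and chr15:6386498-6386797.
Cubn: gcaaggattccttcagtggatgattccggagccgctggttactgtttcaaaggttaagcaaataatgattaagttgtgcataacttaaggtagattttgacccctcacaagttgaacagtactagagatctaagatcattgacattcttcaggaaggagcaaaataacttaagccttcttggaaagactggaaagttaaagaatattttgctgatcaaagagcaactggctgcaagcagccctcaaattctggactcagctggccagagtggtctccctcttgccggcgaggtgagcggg
Amn: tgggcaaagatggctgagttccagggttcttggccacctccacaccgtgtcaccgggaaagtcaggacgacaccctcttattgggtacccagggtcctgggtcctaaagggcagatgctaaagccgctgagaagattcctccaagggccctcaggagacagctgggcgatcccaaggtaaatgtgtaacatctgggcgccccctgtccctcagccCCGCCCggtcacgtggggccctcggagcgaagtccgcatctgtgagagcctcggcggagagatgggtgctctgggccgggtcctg
Lrp2: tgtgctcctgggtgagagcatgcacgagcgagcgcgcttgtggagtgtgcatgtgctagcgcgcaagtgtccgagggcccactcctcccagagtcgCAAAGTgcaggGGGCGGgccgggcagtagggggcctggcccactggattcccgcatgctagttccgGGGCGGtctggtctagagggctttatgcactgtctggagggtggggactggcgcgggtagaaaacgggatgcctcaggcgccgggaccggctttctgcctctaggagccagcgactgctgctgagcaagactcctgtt
Dab2, first window: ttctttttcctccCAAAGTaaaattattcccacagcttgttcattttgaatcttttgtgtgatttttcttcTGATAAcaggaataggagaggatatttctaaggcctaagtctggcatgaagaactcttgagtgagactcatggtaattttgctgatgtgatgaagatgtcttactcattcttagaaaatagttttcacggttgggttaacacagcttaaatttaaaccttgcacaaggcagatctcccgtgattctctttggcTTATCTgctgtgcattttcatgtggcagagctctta
Dab2, second window: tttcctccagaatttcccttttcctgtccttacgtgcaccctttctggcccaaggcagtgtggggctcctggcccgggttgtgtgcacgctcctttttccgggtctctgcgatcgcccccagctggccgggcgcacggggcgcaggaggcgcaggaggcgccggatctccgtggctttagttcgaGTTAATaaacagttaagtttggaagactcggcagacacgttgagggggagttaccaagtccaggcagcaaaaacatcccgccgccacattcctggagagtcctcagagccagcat

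The Cubn window held none of the 6 motifs and had 44.3% G and C, against a median of 52.7% over all 32851 windows. That window follows the RefSeq start. The GENCODE coordinates given for Cubn below place its start at 13491813, just outside the window. The Amn window held a GC box on the reverse strand. The Lrp2 window held the HNF4 hexamer and 2 GC boxes, and the first Dab2 window held the HNF4 hexamer and both GATA hexamers. The second Dab2 window held only the HNF1 hexamer, and the Lrpap1 window, not printed here, held 5 GC boxes. Among all windows, 18.6% held either GATA hexamer, 7.10% GTTAAT, 14.4% CAAAGT, 18.7% ACAAAG and 35.7% GGGCGG. A match describes letters only, and the absence of a match says only that these letters were not in the window.

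Of the 10 genes, 9 passed the filter on low counts and were tested in a fit over 10895 genes, and Fcgrt was not. Cubn, Amn and Dab2 passed through their counts in pXEN and XEN lines alone, since each ES line had 8 or fewer counts, so how many of the genes passed is no result in itself. Against ES, 6 of the 9 were higher in pXEN (Cubn, Lrp2, Lrpap1, Dab2, Cltc and Rab11a) and 1 was lower (Lrp1), where 18.2% of all tested genes rose and 17.8% fell (35.9% in either direction). The comparison of XEN with ES uses the same 2 ES lines. In it Cubn, Lrp2, Lrpap1, Dab2, Cltc and Rab11a were higher in XEN and 0 of the 9 were lower by edgeR (also 0 at an unadjusted p under 0.05 and by DESeq2), where 20.7% of all genes rose and 17.8% fell (38.4% in either direction). No line overlapped between pXEN and ES for 7 of the 9 genes (62.8% of all genes) and between XEN and ES for 6 (63.3% of all genes), so such gaps were common. The median log2 fold change of the 9 was 2.97 in pXEN and 2.77 in XEN, against -0.03 and 0.00 over all tested genes. These medians include Cubn, Amn and Dab2 and leave out Fcgrt, so the filter raised them and they are a description only. Cubn and Dab2 are also among the 6 genes called higher in each comparison. In bulk RNA, fewer cells that express a gene and less of its RNA per cell cannot be told apart.

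**Figure D1:**
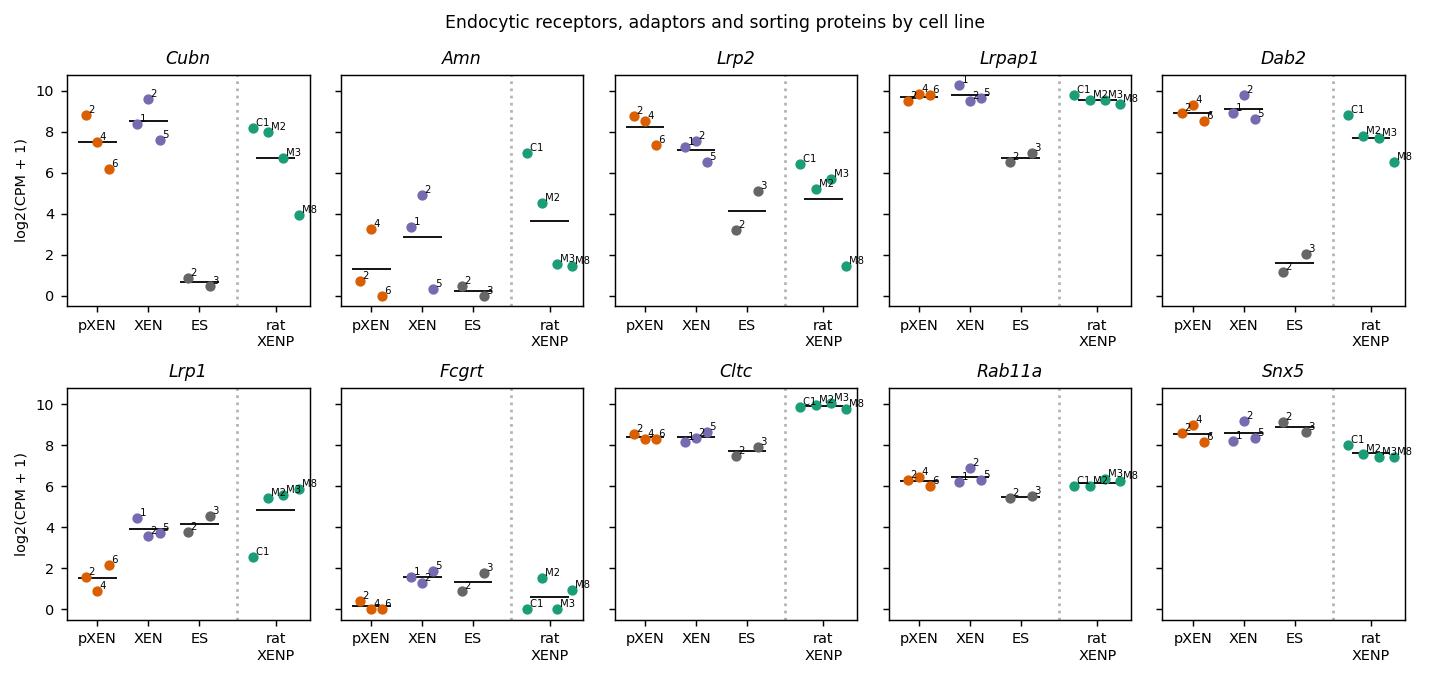
Each panel plots log2(CPM + 1) of 1 gene for pXEN (orange), XEN (purple), ES (grey) and rat XENP (green) lines. Points are lines with their number (C1 is CX1, M2, M3 and M8 the MAX lines) and bars are group means of the plotted values. Rat levels stand right of the dotted line because they are not on the mouse scale. Cubn and Dab2 were far lower in ES lines than in any endoderm line, and Cubn, Amn and Lrp2 were spread most between rat lines.

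Cubilin (Cubn, chromosome 2: 13276338 to 13491813, minus strand, GRCm38) had 452, 179.9 and 71.2 CPM in pXEN2, pXEN4 and pXEN6. It had 333, 773 and 190.2 CPM in XEN1, XEN2 and XEN5, and 0.822 and 0.390 CPM in ES2 and ES3. Every pXEN and XEN line lay far above both ES lines, while pXEN and XEN lines overlapped. The ES lines held 3 Cubn counts in all, and the pooled count ratio was 374 for pXEN over ES (95% counting interval 128 to 1815) and 729 for XEN over ES (249 to 3539). Such intervals cover counting error only. With edgeR (quasi-likelihood test, Benjamini-Hochberg adjustment), the fitted log2 fold change was 8.51 for pXEN over ES (SE 1.48, adjusted p = 0.00406) and 9.40 for XEN over ES (SE 1.50, adjusted p = 0.00289). The fitted value for pXEN over ES was 7.61 without pXEN2 and 9.10 without ES2, and that for XEN over ES was 8.67 without XEN2 and 9.99 without ES2. Between pXEN and XEN lines the log2 difference was -0.88 (SE 0.73, adjusted p = 0.674), which is smaller than the spread within either group.

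Amnionless (Amn, chromosome 12: 111271095 to 111276426, plus strand) was scarcer than Cubn per kilobase of exon, at 1.66 against 15.7 CPM per kb in pXEN and 7.12 against 28.9 CPM per kb in XEN. Amn had 2, 30 and 0 counts in pXEN2, pXEN4 and pXEN6 (0.658, 8.54 and 0 CPM), 24, 107 and 1 counts in XEN1, XEN2 and XEN5 (9.35, 29.7 and 0.264 CPM), and 1 and 0 counts in ES2 and ES3. pXEN6 at 0 counts and XEN5 at 1 count lay within the range of the ES lines, so the groups overlapped. The pooled count ratio was 15.9 for pXEN over ES (2.66 to 649) and 66.3 for XEN over ES (11.7 to 2639). Neither comparison passed the threshold with edgeR's quasi-likelihood fit (log2 fold change 3.71, SE 3.02, adjusted p = 0.378 for pXEN; 5.78, SE 2.73, adjusted p = 0.136 for XEN). Single lines decided these values. The fitted log2 fold change of Amn for pXEN over ES was 0.54 without pXEN4 (adjusted p = 0.932) and 6.35 without ES2. For XEN over ES it was 4.25 without XEN2 (adjusted p = 0.250) and 8.41 without ES2, and of the fits that left out 1 line only the one without XEN5 passed, at 6.35 with an adjusted p of 0.0496.

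Megalin (Lrp2, chromosome 2: 69424340 to 69586065, minus strand) had 431, 371 and 165 CPM in pXEN2, pXEN4 and pXEN6. It had 152, 184 and 92.2 CPM in XEN1, XEN2 and XEN5, and 8.22 and 33.5 CPM in ES2 and ES3. All pXEN and XEN lines were above both ES lines, and pXEN6 lay within the range of the XEN lines. Lrp2 was 15.4-fold higher in pXEN than in ES (log2 fold change 3.94 ± 0.68 SE, adjusted p = 0.00232), and it was 6.81-fold higher in XEN than in ES (2.77, SE 0.65, adjusted p = 0.00998). The size of the change leaned on the ES line used: for pXEN over ES the log2 value was 3.27 without ES2 and 5.30 without ES3, and for XEN over ES 2.10 and 4.11. Lrp2 averaged 322 ± 139 CPM in pXEN and 143 ± 46.8 CPM in XEN (SD, n = 3 each), a log2 difference of 1.17 (SE 0.50) with an unadjusted p of 0.0453 and an adjusted p of 0.311 in the same edgeR test.

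The chaperone Lrpap1 (chromosome 5: 35091501 to 35105766, minus strand) had 721, 910.0 and 893 CPM in pXEN2, pXEN4 and pXEN6, 1243, 733 and 799.7 CPM in XEN1, XEN2 and XEN5, and 90.1 and 125 CPM in ES2 and ES3. It was high in all endoderm lines, most of all in XEN1, and present at a lower level in ES lines. It was 7.83-fold higher in pXEN than in ES (log2 fold change 2.97 ± 0.30 SE, adjusted p = 3.44e-05), and it was 8.61-fold higher in XEN than in ES (3.11, SE 0.30, adjusted p = 2.95e-05) by the same edgeR test. Per kilobase of exon, Lrpap1 had the highest mean level of the 10 genes in pXEN, at 204 CPM per kb, and in XEN, at 225 CPM per kb. In ES lines, where it had 26.1 CPM per kb, Snx5 was higher at 114 CPM per kb.

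The adaptor Dab2 (chromosome 15: 6299788 to 6440712, plus strand) had 482, 624 and 366 CPM in pXEN2, pXEN4 and pXEN6. It had 479, 898 and 399.7 CPM in XEN1, XEN2 and XEN5, and 1.23 and 3.12 CPM in ES2 and ES3, from 3 and 8 counts. No endoderm line came near an ES line, and the pXEN and XEN ranges overlapped. Dab2 was 219-fold higher in pXEN than in ES (log2 fold change 7.78 ± 0.59 SE, adjusted p = 9.10e-06), and it was 265-fold higher in XEN than in ES (8.05, SE 0.59, adjusted p = 8.72e-06) in edgeR's quasi-likelihood test. Without ES3 these log2 values were 8.60 and 8.86. Dab2 did not pass the threshold between pXEN and XEN (log2 difference -0.27, SE 0.33, adjusted p = 0.789).

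**Figure D2:**
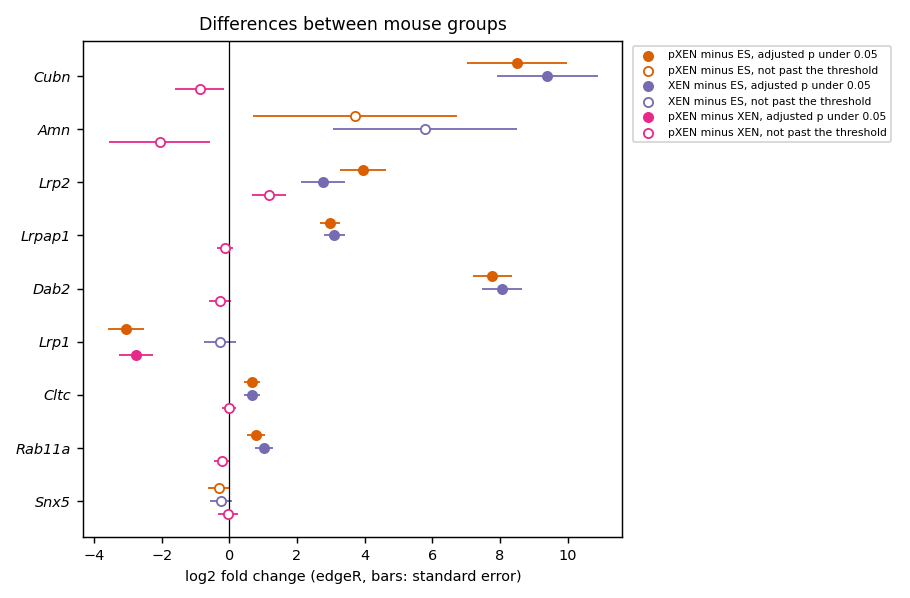
Points are edgeR log2 fold changes of the 9 tested genes for pXEN over ES (orange), XEN over ES (purple) and pXEN over XEN (pink), with bars for the standard error. Filled points passed an adjusted p of 0.05. Cubn and Dab2 lay farthest right against ES, and Lrp1 was the only filled point between pXEN and XEN.

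Lrp1 (chromosome 10: 127538161 to 127621148, minus strand), a scavenger and signalling receptor of the same family as megalin, had another pattern. It had 1.97, 0.854 and 3.44 CPM in pXEN2, pXEN4 and pXEN6, from 6, 3 and 12 counts. It had 21.0, 10.8 and 12.2 CPM in XEN1, XEN2 and XEN5, and 12.7 and 22.6 CPM in ES2 and ES3. All pXEN lines were below every XEN and ES line, whereas XEN and ES lines overlapped. Lrp1 was 8.32-fold lower in pXEN than in ES (log2 fold change -3.06 ± 0.54 SE, adjusted p = 0.00121), and it was 6.85-fold lower in pXEN than in XEN (-2.78, SE 0.50, adjusted p = 0.00886) by edgeR's quasi-likelihood test. In XEN over ES the log2 fold change was -0.28 (SE 0.47, adjusted p = 0.667). It was the 1 gene of the 9 called between pXEN and XEN, a comparison in which 3.63% of all tested genes were lower, 0.918% higher and 4.55% called in all, and the 1 gene of the 9 whose pXEN and XEN lines did not overlap, where 19.8% of all genes did not.

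XEN lines were grown on fibroblast feeders, and fibroblasts are known to express Lrp1. The 16 fibroblast markers summed to 13.4 to 19.8 CPM in pXEN lines, 502 to 588 CPM in XEN lines and 11.3 to 16.4 CPM in ES lines. Acta2 and Tagln were the largest parts of the XEN sum, at 184 and 160.5 CPM on average, with Col1a2 next at 39.3 CPM. In pXEN lines 10 of the 16 were at 0, among them Col1a2, Col3a1, Dcn and Thy1, in XEN lines only Fap was at 0, and in ES lines 7 were at 0. Of the 13 markers tested, 12 were lower in pXEN than in XEN, where 3.63% of all tested genes were lower. Markers such as Col1a2, Col3a1 and Prrx1 had 0 counts in pXEN and in ES lines. They passed the filter on low counts through XEN lines alone, so the count of 12 is a description only. The part of feeder transcripts in the Lrp1 level of XEN lines was not tested. ES lines, with fibroblast markers as low as in pXEN lines, had Lrp1 levels within or above the range of the XEN lines.

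**Figure D3:**
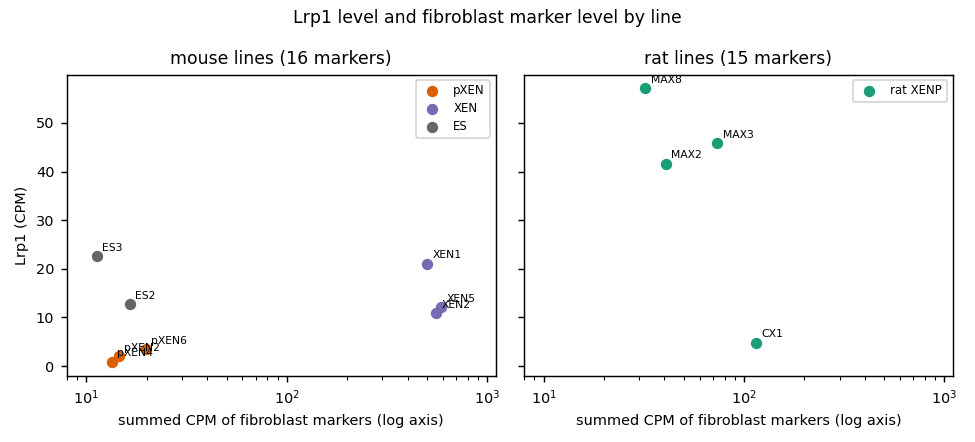
Lrp1 level (CPM) is plotted against the summed CPM of fibroblast markers on a log axis, for mouse lines (16 markers, left) and rat XENP lines (15 markers, right), with 1 point per line. The pXEN lines sit at 0.854 to 3.44 CPM of Lrp1 and the XEN lines at 10.8 to 21.0 CPM, while the ES lines have 12.7 and 22.6 CPM at low marker sums.

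The gene Fcgrt (chromosome 7: 45092990 to 45103851, minus strand) encodes the heavy chain of the neonatal Fc receptor, which carries immunoglobulin G across the rodent yolk sac. It had 1, 0 and 0 counts in pXEN2, pXEN4 and pXEN6, 5, 5 and 10 counts in XEN1, XEN2 and XEN5, and 2 and 6 counts in ES2 and ES3. It was thus barely detected in any mouse line, with means of 0.110 CPM in pXEN, 1.99 CPM in XEN and 1.58 CPM in ES. The pooled count ratio was 0.0496 for pXEN over XEN (0.00120 to 0.310), 0.0622 for pXEN over ES (0.00140 to 0.464) and 1.26 for XEN over ES (0.530 to 3.30). With no filter on low counts, edgeR's adjusted p for pXEN over ES was 0.0449 and for pXEN over XEN 0.0595, and DESeq2 gave 0.0876 and 0.150. In the rat lines Fcgrt had 0 counts in CX1 and MAX3, 2 in MAX2 and 1 in MAX8.

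The genes of general coat formation and sorting differed less. Clathrin heavy chain (Cltc, chromosome 11: 86694351 to 86757565, minus strand) had 367, 311 and 318 CPM in pXEN2, pXEN4 and pXEN6, 288, 322 and 395 CPM in XEN1, XEN2 and XEN5, and 176 and 243 CPM in ES2 and ES3. Rab11a (chromosome 9: 64715299 to 64737758, minus strand), the small GTPase of recycling endosomes, had 77.3, 87.1 and 62.6 CPM in the pXEN lines, 73.6, 116 and 77.4 CPM in the XEN lines, and 41.9 and 45.2 CPM in the ES lines, in the same order of lines. Both genes were higher in every endoderm line than in either ES line, by small steps. Cltc was 1.58-fold higher in pXEN than in ES (adjusted p = 0.0442) and 1.60-fold higher in XEN than in ES (adjusted p = 0.0388), and Rab11a 1.74-fold (adjusted p = 0.0391) and 2.04-fold (adjusted p = 0.0120), by edgeR's quasi-likelihood test. These calls were not stable: that of Cltc in pXEN was lost without pXEN2, pXEN4, pXEN6 or ES2 (adjusted p up to 0.297) and that of Rab11a in pXEN without pXEN2, pXEN4, ES2 or ES3 (up to 0.180). In XEN, Cltc was not called without pXEN2, pXEN6, XEN2, XEN5 or ES2 (up to 0.273) and Rab11a without ES2 or ES3 (up to 0.0874). With upper-quartile scaling, Rab11a in pXEN and Cltc in both groups were not called, and Cltc in XEN was not called with a sex term (adjusted p = 0.0528 by edgeR) or when only XEN and ES lines were fitted (0.0625).

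Snx5 (chromosome 2: 144250123 to 144270906, minus strand), a sorting nexin that shapes tubules on endosomes, had 381, 499 and 282 CPM in pXEN2, pXEN4 and pXEN6, 293, 573 and 329 CPM in XEN1, XEN2 and XEN5, and 554 and 398 CPM in ES2 and ES3. The 3 groups overlapped. Its log2 fold change was -0.30 for pXEN over ES (SE 0.33, adjusted p = 0.506) and -0.26 for XEN over ES (SE 0.33, adjusted p = 0.563) in edgeR's test. The small nucleolar RNA Snord17 lies in an intron of Snx5 on the same strand and has a row of its own in the tables.

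**Figure D4:**
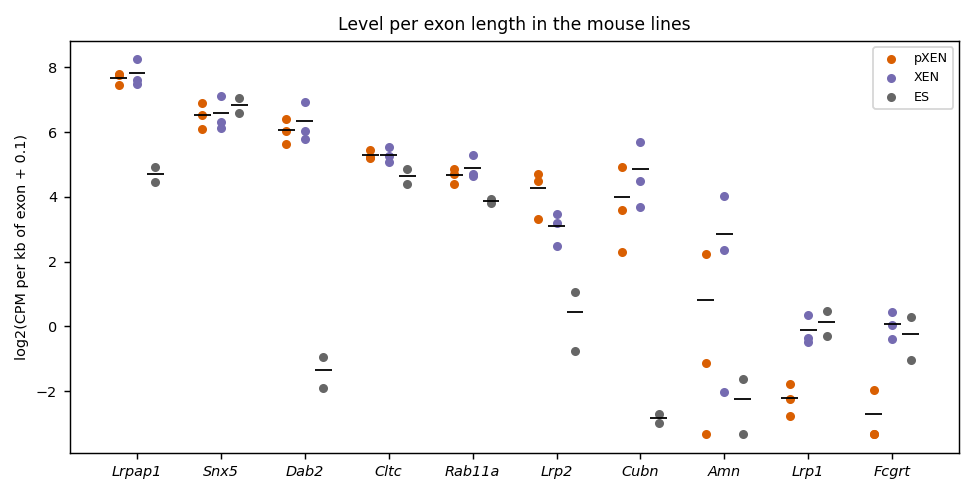
The level of each gene per kilobase of merged exon is plotted as log2(CPM per kb + 0.1) for pXEN (orange), XEN (purple) and ES (grey) lines, with bars at the log2 of the group mean. Lrpap1 was highest in pXEN and XEN, and Lrp1 and Fcgrt lay lowest in pXEN and XEN.

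Compared per exon length, the order of mean levels in pXEN lines was Lrpap1, Snx5 (92.7 CPM per kb), Dab2 (66.8), Cltc (39.1), Rab11a (25.3), Lrp2 (19.3), Cubn (15.7), Amn (1.66), Lrp1 (0.118) and Fcgrt (0.0522). The order in XEN lines was Lrpap1, Snx5 (95.4 CPM per kb), Dab2 (80.7), Cltc (39.4), Rab11a (29.7), Cubn (28.9), Lrp2 (8.56), Amn (7.12), Fcgrt (0.948) and Lrp1 (0.83). Neighbours such as Rab11a, Lrp2 and Cubn in pXEN, Rab11a and Cubn in XEN, and Lrp1 and Fcgrt in both groups did not differ beyond the spread between lines. Lrp2 stood before Cubn in pXEN and after it in XEN, with overlapping lines for Cubn in the 2 groups. In ES lines the leading genes were Snx5, Lrpap1, Cltc (24.7 CPM per kb) and Rab11a (14.6), and Cubn was last at 0.0406 CPM per kb.

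Cubn differed strongly between lines of 1 kind. The highest line had 6.35 times the level of the lowest in pXEN (95% counting interval 5.54 to 7.30), 4.06 times in XEN (3.74 to 4.42) and 20.6 times in rat XENP (12.5 to 36.4). The SD of log2(CPM + 1) of Cubn was 1.32 in pXEN, 1.02 in XEN and 1.96 in XENP, against a median over genes of 0.27, 0.30 and 0.30. Among genes with a mean of at least 10 CPM, 93 (1.28%) had a larger SD than Cubn in pXEN, 204 (2.76%) in XEN and 44 (0.584%) in XENP. This spread was known when Cubn was chosen and is given as a description. For Lrp2, 5.42% of genes had a larger SD in pXEN, 18.9% in XEN and 0.292% in XENP, whereas Lrpap1, Cltc and Rab11a varied less than most genes in XENP.

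The line at the bottom was the same for all 4 genes of the cubilin and megalin complex. pXEN6 among pXEN lines, XEN5 among XEN lines and MAX8 among rat lines had the lowest Cubn, Lrp2, Dab2 and Amn, with MAX3 at 2 Amn counts like MAX8. These genes were grouped after the levels were seen, and how many of all genes share these lowest lines was not counted. Within single groups other genes of the route had the same lowest line. pXEN6 was also lowest for Rab11a and Snx5, and MAX8 for Lrpap1 and Cltc. XEN2 was highest for Rab11a and Snx5 as well. In XEN the order was XEN2, XEN1, XEN5 for each of the 4 genes, and in pXEN it was pXEN2, pXEN4, pXEN6 for Cubn and Lrp2 but pXEN4, pXEN2, pXEN6 for Dab2 and Amn. Summed over the 14 visceral endoderm markers, none of them one of the 10 genes, the level was 211, 308 and 135 CPM in pXEN2, pXEN4 and pXEN6, 107, 203 and 105 CPM in XEN1, XEN2 and XEN5, and 34.1 and 14.8 CPM in ES2 and ES3. Spink1 was the largest part of that sum, at 143 CPM on average in pXEN and 55.3 CPM in XEN. Among pXEN lines the marker sum was lowest in pXEN6, while among XEN lines XEN1 and XEN5 had nearly equal sums. Its part in the spread of the receptors was not tested.

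**Figure D5:**
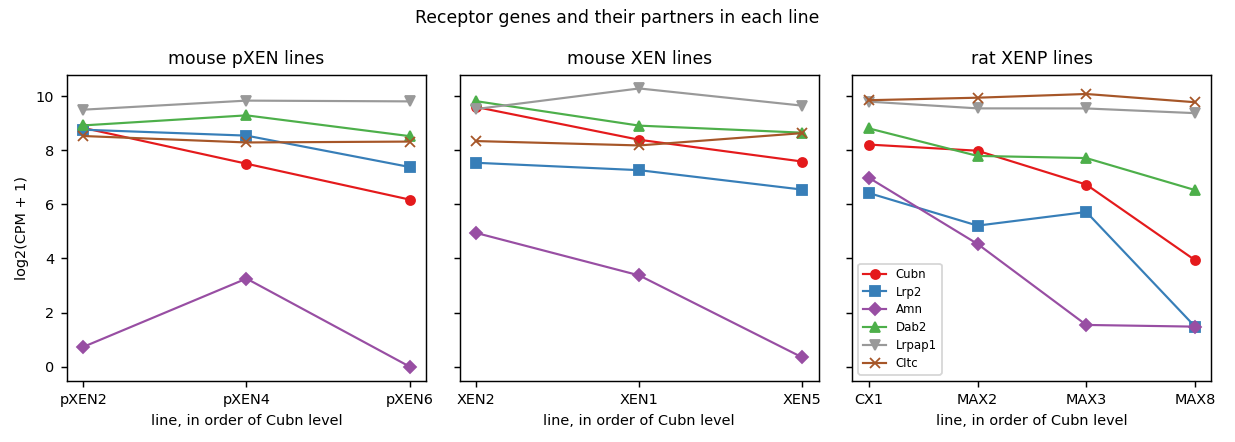
Lines are placed along each axis in order of falling Cubn level, and the vertical axis is log2(CPM + 1), for pXEN (left), XEN (middle) and rat XENP lines (right). Cubn, Lrp2, Amn and Dab2 all end lowest at the right of each panel, while Lrpap1 and Cltc vary less. Amn had 2 counts in MAX3 and 2 in MAX8.

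The 4 rat XENP lines had no rat comparison group. Cubn had 294, 251, 105.0 and 14.3 CPM in CX1, MAX2, MAX3 and MAX8, and Amn 126, 22.2, 1.91 and 1.79 CPM in the same order of lines. Lrp2 had 84.5, 36.0, 51.5 and 1.79 CPM, and Dab2 447, 220.0, 208 and 91.1 CPM. CX1 was highest and MAX8 lowest or joint lowest for each of these genes. Both are WKY lines, but they differ in sex and in passage. The parts of strain, sex and passage were not tested. Only 16 counts of Cubn and 2 of Lrp2 were recorded in MAX8. The visceral marker sum, over 13 genes in rat, followed the same order as Cubn, with 98.2, 36.0, 22.9 and 14.3 CPM. Without CX1 the mean of Amn was 8.63 CPM, against 37.8 ± 59.2 CPM over all 4 lines (SD), and that of Cubn 124 CPM, against 166 ± 130 CPM.

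Lrp1 ran the other way in rat, with 4.83, 41.6, 45.8 and 57.1 CPM in CX1, MAX2, MAX3 and MAX8. CX1 alone was low, and without it the mean was 48.2 CPM, against 37.3 ± 22.7 CPM over 4 lines. The rat fibroblast marker sum was 115, 40.7, 73.5 and 32.1 CPM in that order, highest in the line with the least Lrp1, and 12 of its 15 markers were at 0. Tagln was its largest part, at 61.2 CPM on average, so the rat sum says little about fibroblasts. Lrpap1, Cltc and Rab11a differed less between rat lines: Lrpap1 had 887, 746, 745 and 659.8 CPM, Cltc 919.6, 981, 1079 and 873 CPM, and Rab11a 64.4, 62.8, 79.2 and 74.1 CPM. Snx5 had 255, 189, 171 and 173 CPM, highest in CX1.

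The balance of cubilin and megalin was also read as the number of Cubn counts per Lrp2 count, a ratio chosen after the values were seen. It was 1.05, 0.485 and 0.431 in pXEN2, pXEN4 and pXEN6, and 2.19, 4.19 and 2.06 in XEN1, XEN2 and XEN5. All pXEN lines were below all XEN lines, although neither gene was called between these groups. In the rat lines it was 3.49, 6.97, 2.04 and 8 in CX1, MAX2, MAX3 and MAX8, the last from 16 and 2 counts (1.88 to 71.7).

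Over the 6 pXEN and XEN lines, the genes whose log2(CPM + 1) followed Cubn most closely among 7389 genes were Mtfr1l (Pearson r = 0.98), Cap1, Brca1, Focad and Scrib (0.96 to 0.97). Among the genes of the route, Rab11a ranked 197th (0.77) and Dab2 268th (0.74), while Lrp2 had 0.22 and Lrpap1 -0.27. Mtfr1l, with 81.3, 55.0 and 44.2 CPM in pXEN2, pXEN4 and pXEN6 and 79.9, 111 and 66.3 CPM in XEN1, XEN2 and XEN5, did not follow Cubn in rat, where it had 135, 172, 136 and 206 CPM in CX1, MAX2, MAX3 and MAX8. Over all 8 mouse lines and 7570 genes, where the gap to ES dominates, Nedd9, F3, Ugt2b34 and Whsc1 were among the leading genes (each 0.98), and Dab2 ranked 21st (0.97). Nedd9 had 34.6, 24.95, 14.3 and 13.4 CPM in the same order of rat lines, which is also the order of Cubn there. These correlations describe a few lines that share 1 fit of library scale, and the leading genes were picked as the highest of all genes compared.

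Other genes of the endocytic route were described through 5 lists. Of 114 tested genes in them, 39 rose and 12 fell in pXEN against ES, and 39 rose and 9 fell in XEN against ES. Among all tested genes, 18.2% rose and 17.8% fell in pXEN, and 20.7% rose and 17.8% fell in XEN. Snx33, Myo5b and Myo6, with 4, 4 and 8 counts over the ES lines, passed the filter on low counts through endoderm lines alone. Dnajc6, with 0 counts in pXEN and 1 in XEN, passed it through ES lines alone. The filter thus shaped the counts and medians of the lists, which are a description only. Of the 114 genes, 0 were called between pXEN and XEN by edgeR's quasi-likelihood test at an adjusted p of 0.05, while 2 were higher and 8 lower at an unadjusted p under 0.05, and DESeq2 called 1 higher and 1 lower. These counts leaned on the ES lines: leaving out ES2 left 20 rising genes for pXEN and 18 for XEN. Leaving out ES3 left 21 rising and 7 falling for pXEN, and 22 rising and 5 falling for XEN.

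Among 26 tested sorting nexins and parts of the retromer and commander complexes, which retrieve receptors from endosomes, 12 rose and 0 fell in pXEN against ES, with a median log2 fold change of 0.90 against -0.03 over all genes. The same counts were found in XEN, with a median of 0.75 against 0.00. At an unadjusted p under 0.05 or by DESeq2, 0 fell as well in either group. Over all tested genes, 18.2% rose and 17.8% fell in pXEN against ES, and 20.7% rose and 17.8% fell in XEN. Snx33 averaged 68.4 ± 2.23 CPM in pXEN, 51.1 ± 15.4 CPM in XEN and 0.801 ± 0.0304 CPM in ES (SD), 81.4-fold and 60.6-fold higher than in ES. The ES mean and SD of Snx33 rest on 4 counts in all. Its pooled count ratio was 85.5 for pXEN over ES (33.3 to 315) and 61.7 for XEN over ES (23.9 to 227). Commd3 was 6.92-fold and 6.75-fold higher and Snx7 5.05-fold and 5.90-fold higher. Without ES3, 7 genes of this list were called higher in pXEN and 6 in XEN.

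The apical apparatus of protein and cobalamin uptake had 13 tested genes. Of these, 7 rose and 1 fell in pXEN against ES (median log2 fold change 1.21), and 5 rose and 0 fell in XEN (median 0.82). In XEN 0 fell also at an unadjusted p under 0.05 or by DESeq2. The shares over all tested genes were 18.2% rising and 17.8% falling in pXEN, and 20.7% and 17.8% in XEN. Clcn5, the chloride and proton exchanger of endosomes, averaged 146 ± 21.2 CPM in pXEN, 105.0 ± 8.91 CPM in XEN and 11.6 ± 8.33 CPM in ES, 12.4-fold and 8.94-fold higher than in ES. Tcn2, which carries cobalamin in plasma, was 11.1-fold and 11.7-fold higher, and the motor Myo6 9.38-fold and 9.84-fold higher. Myo6 had 8 counts over the ES lines, and its pooled count ratio was 9.59 for pXEN over ES (4.74 to 22.6) and 10.0 for XEN over ES (4.98 to 23.7). The linker Ezr was 1.72-fold lower in pXEN (adjusted p = 0.0317 by edgeR), a call lost without any 1 of pXEN2, pXEN4, pXEN6, ES2 or ES3. Without ES2, 3 genes of the list were higher in each group, and without ES3, 4 were higher in pXEN.

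Of 29 tested genes of early and recycling endosomes, 6 rose and 1 fell in pXEN against ES (median log2 fold change 0.54), and 11 rose and 1 fell in XEN (median 0.52). Of all tested genes 18.2% rose in pXEN, so the count of 6 was near that share, and 20.7% rose in XEN. The falling share of all genes was 17.8% in pXEN and 17.8% in XEN. Without ES2, 3 were higher in each group, and without ES3, 6 were higher in XEN. Myo5b, the motor that works with Rab11a, averaged 24.1 ± 1.95 CPM in pXEN, 39.4 ± 29.6 CPM in XEN and 0.790 ± 0.536 CPM in ES, 28.7-fold and 46.6-fold higher than in ES. The ES level of Myo5b rests on 4 counts in all. Its pooled count ratio was 30.0 for pXEN over ES (11.6 to 111) and 44.6 for XEN over ES (17.3 to 165). The Rab11 effector Rab11fip5 was 3.71-fold higher in pXEN and 6.30-fold higher in XEN, and Ehd2 4.69-fold and 9.42-fold, the first of these lost without pXEN6, ES2 or ES3 (adjusted p up to 0.129). Ehd3 was 6.03-fold lower in pXEN, a call lost without pXEN2, pXEN4, pXEN6 or ES3, and 6.35-fold lower in XEN, a call lost without ES3.

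Against ES, 18.2% of all tested genes rose and 17.8% fell in pXEN, and 20.7% rose and 17.8% fell in XEN. Of 30 tested clathrin coat genes and adaptors, 10 rose and 3 fell in pXEN (median log2 fold change 0.33). In XEN 8 rose, not far above the share of all genes, and 3 fell (median 0.39). The first count fell to 5 without pXEN2, 6 without pXEN4 and 3 without ES2 or without ES3, and the XEN count to 2 without ES2 and 3 without ES3. Hip1, which binds clathrin and actin, was 5.60-fold higher in pXEN and 4.28-fold higher in XEN. Bin1 was 3.16-fold higher in pXEN, a call lost without pXEN2, pXEN6, ES2 or ES3, and Synj1 2.58-fold higher in XEN, a call lost without ES2. Dnajc6, the auxilin that helps to uncoat vesicles, was counted 0 times over the pXEN lines, 1 time over the XEN lines and 130 times over the ES lines. Against a floor of 3 counts over the pXEN lines (0.299 CPM) it was at least 87.0-fold lower in pXEN than in ES, and the XEN over ES count ratio was 0.00386 (9.71e-05 to 0.0219). Hspa8, its partner chaperone, was 1.62-fold lower in pXEN, a call lost without pXEN2, pXEN4, XEN5, ES2 or ES3, and 1.90-fold lower in XEN, a call lost without ES2.

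The uptake receptors were mixed. Of 16 tested, 4 rose and 7 fell in pXEN against ES (median log2 fold change 0.78, above 0 although more fell than rose), and 3 rose and 5 fell in XEN (median -0.06). The 3 rising in XEN were near the 20.7% of all tested genes that rose there. In pXEN 18.2% of all tested genes rose, and 17.8% fell in pXEN and 17.8% in XEN. B2m, the light chain that pairs with the product of Fcgrt and with class I molecules, was 4.18-fold higher in pXEN and 5.63-fold higher in XEN, and Lrp10 5.48-fold and 7.26-fold, the first lost without ES2 (adjusted p = 0.0533 by edgeR). Lrp6 was 2.91-fold higher in XEN, a call lost without ES2. The folate receptor Folr1 averaged 10.2 ± 2.89 CPM in pXEN, 5.52 ± 3.51 CPM in XEN and 59.2 ± 23.2 CPM in ES, 5.77-fold and 10.8-fold lower than in ES. Lrp11 was 30.7-fold and 14.7-fold lower, Sort1 5.54-fold lower in pXEN (lost without ES2) and Scarb1, a lipoprotein receptor, 2.59-fold lower in XEN (lost without ES3). Without ES2 the count of higher receptors in pXEN was 1, and without ES3 the count of lower ones in XEN was 2.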

How the data were processed

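For each line the authors deposited a table of gene counts as whole numbers, with unstranded, forward and reverse-strand columns per the file headers and values. Per the labels' protocols, ribosomal RNA was removed and a directional kit was used. The reverse-strand column, with 98.9% to 99.3% of stranded counts, was analysed. The submitters' processing notes name CASAVA 1.8.2, Trimmomatic 0.33, STAR 2.5.1, DESeq2, mm10 and rn6, without their roles, and no source used here gives the counting annotation. The tables of the pXEN lines carry the name mouse XENP in place of pXEN. Reads outside genes (73.4% to 78.3% in mouse, 89.7% to 91.8% in rat, where 65.5% to 70.1% were multimapping) were left out. The ribosomal precursor Rn45s stayed in, at 20.7% to 50.1% of the counts on mouse genes.

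All 8 mouse libraries were fitted together in edgeR 4.0.16 (R 4.3.3) with TMM scaling, filterByExpr (minimum count 10) and the robust quasi-likelihood test, which was tested on simulated data. P-values were adjusted over 10895 genes (Benjamini-Hochberg, threshold 0.05). The standard error is the log2 fold change over the square root of F. Mouse CPM are TMM-scaled and rat CPM are not. Coordinates and exon lengths come from GENCODE vM21, and no rat annotation was used. Alternatives were DESeq2 1.42.0, upper-quartile scaling, no filter, Rn45s left out, unstranded counts, only the groups compared, a sex term and each line left out. Genes named from lists were up to 3 called per direction and list with the largest change and a mean of 10 CPM or more in the higher group. Some genes that this rule or the likeness to Cubn names are not reported here. The genes and lists were chosen with earlier results of these data known.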

Additional observations from a re-analysis of the deposited data

Results flagged for a closer look

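Amn in the rat line CX1, at 126 CPM (156 counts), lay apart from the other rat lines, which had 22.2, 1.91 and 1.79 CPM. CX1 was also the line with the highest passage number, the highest level of the pluripotency marker Pou5f1 and the highest visceral marker sum, while Nanog, Sox2 and Esrrb had 0 counts in all 4 rat lines. Amn in CX1 was marked by an outlier rule (Dixon's ratio, the gap to the nearest line over the full range). The rule was applied to CPM of each of the 10 genes and not to log values. About 1 in 20 groups of this size is marked by chance, so 1 mark among 10 genes carries little weight.

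The difference from ES cells was not the same in pXEN and XEN for Lrp1. The test of that difference is the pXEN over XEN comparison, with a log2 fold change of -2.78 in edgeR's quasi-likelihood test (SE 0.50, adjusted p = 0.00886), and all 3 pXEN lines were below all 3 XEN lines. The fibroblast marker sum was 13.4 to 19.8 CPM in pXEN and 502 to 588 CPM in XEN, and its part in the difference was not tested.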

How the results depend on the processing

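Of 404 values of the tested genes under alternatives, 372 kept their direction and their side of the threshold, 20 were no longer past it, 1 newly passed it and 11 changed sign. The calls of Cubn, Lrp2, Lrpap1 and Dab2 against ES, and of Lrp1 in pXEN against ES and against XEN, held under all 15 alternatives. With upper-quartile scaling, which moved the median of all genes to -0.13 in pXEN and -0.11 in XEN over ES, Cltc was not called in pXEN (adjusted p = 0.0824 by edgeR) or XEN (0.0745), nor Rab11a in pXEN (0.0635). The sign changes were all in uncalled differences. With a sex term, the pXEN over XEN log2 values became 0.010 for Cltc and 0.11 for Snx5. Over the fits that leave out 1 line, the values ranged from -0.63 to 0.19 for Lrp1 and -0.61 to 0.011 for Snx5 in XEN over ES, and in pXEN over XEN from -0.28 to 0.12 for Lrpap1, -0.49 to 0.16 for Dab2, -0.13 to 0.12 for Cltc and -0.27 to 0.31 for Snx5. Without the count filter, 2 of the genes were lower in pXEN than in ES, the added one being Fcgrt. Of the list genes between pXEN and XEN, 1 was higher with DESeq2 or no filter, and 1 was lower with DESeq2, no filter or only the groups compared. Leaving out 1 line gave 20 to 41 higher and 7 to 13 lower list genes in pXEN over ES, 18 to 41 and 5 to 9 in XEN over ES, and 0 to 1 and 0 to 2 in pXEN over XEN. The rat mean of Fcgrt was 1.83 CPM from unstranded counts, against 0.685 CPM, and 0.298 to 0.914 CPM over the fits that leave out 1 line. Leaving out 1 rat line gave means of 124 to 217 CPM for Cubn, 8.63 to 49.9 for Amn, 29.8 to 57.4 for Lrp2, 173 to 292 for Dab2 and 30.7 to 48.2 for Lrp1. No paired analysis was possible because the groups shared at most 1 line number. Cubn, Snx33, Myo5b and Myo6 in ES lines, and Amn, Fcgrt and Lrp1 in pXEN lines, rest on few counts. With 2 ES lines the size of every change against ES is uncertain.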
